A study of Rattus norvegicus with 12 samples.

Results

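The genes described here belong to the TGF-beta and BMP signalling pathways, and their RNA was compared between adherent rat fibroblasts and cells that had grown as colonies in soft agar. They were taken from a list of 50 ligands, receptors, antagonists and other extracellular modulators, Smads with their regulators, and target genes. A gene counted as measured where a probe set of the array carried its symbol and no other, which was so for 46 of the 50, out of 14217 genes measured in all. No probe set had the single symbol of Tgfbr2, Acvr1b, Bmpr1b or Gdf5 in the annotation used here, so these 4 genes were not analysed here. The members had 79 probe sets, 24 genes with 1 probe set and 22 with several. Each gene's value is that of its brightest probe set over all arrays, and other probe sets are given where they differ.

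Ligands of this family are secreted as dimers, and TGF-beta is held latent in the matrix until it is freed. A ligand joins type II and type I serine/threonine kinase receptors, and the type I receptor then phosphorylates Smad2 and Smad3 (TGF-beta and activins) or Smad1 and Smad5 (most BMPs), which enter the nucleus with Smad4. Inhibitory Smads, ubiquitin ligases and secreted binding proteins limit the signal, and in fibroblasts the TGF-beta branch is best known for driving matrix and contractile genes.

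The cells were F111, an established fibroblast line of the Fischer rat that is aneuploid according to the karyotypes of the study. A16 cells had been kept adherent for 16 h. Colony cells descended from NA16 cells, F111 cells that had survived 16 h in suspension, and had been kept in soft agar for 7 days, freed from it and left to attach briefly. Both groups came from 1 line grown in medium with fetal calf serum, and neither carried a transgene or received a drug according to the labels. Their karyotypes differed, since the study found a further translocation in a minority of A16 cells and in all colony-derived cells it examined. The part of the karyotype in the values below was not tested. Intensities are listed below for the 3 arrays of a group in the order of biological replicate 1, the technical array named replicate 2, and the array of biological replicate 2. The technical array was averaged with biological replicate 1, so that n = 2 cultures per group, and this small number limits the precision. The labels of Colony biological replicate 2 disagree, since 1 field names tumour cells. The array stayed in the Colony group, and a member whose call changes without it is pointed out. P-values measure the spread between these cultures and no others. The fit draws the spread of each probe set towards that of all probe sets.

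The median RMA intensities of the arrays were 97.6 to 100.9, which the normalisation of these values sets and which does not compare the arrays. The SD of the log2 differences over probe sets was 0.297 between the A16 cultures, 0.331 between the Colony cultures and 0.673 to 0.762 between arrays of different groups. Of the fibroblast markers, Vim and Col1a2 were bright in both groups, with log2 fold changes of 0.16 and -0.61. Pdgfra was higher in Colony under 2-fold, at 0.55 (SE 0.13), with 1294 to 1401 in A16 and 1886 to 2071 in Colony. Pdgfrb stood at 0.32 (SE 0.19). The 10 markers summed to an intensity of 55760 to 68675 in A16 and 38100 to 43078 in Colony cells. The 3 called lower were Col1a1, Col3a1 and Thy1, with log2 fold changes of -2.72, -1.4 and -1.31, and 0 were called higher. Lum, Dcn and Fap were dim in RMA, and Lum was lower in Colony at -0.78 (SE 0.13). In PLIER, the other summary of the same arrays, Fap was not dim, at 154.4 to 453.1. Of the markers of other cell types, 1 of 7 of macrophages and leukocytes, Csf1r, was called higher in Colony. Csf1r had a log2 fold change of 4.01 (SE 0.19), with intensities of 34.4 to 44.9 in A16 and 538.4 to 823.9 in Colony. The list summed to 1163 to 1317 in A16 and 1504 to 1623 in Colony, with Ptprc and Tyrobp dim. Most of the A16 sum was Cd14, at 891.3 to 1020 in A16 and 533.7 to 697.3 in Colony. Cd14 was lower in Colony with a log2 fold change of -0.56 (SE 0.15), under 2-fold. Of the epithelial markers 1 of 6, Krt8, was called higher, with a log2 fold change of 2.13 (SE 0.16; list sum 909 to 1014 and 3154 to 3913, with Epcam dim). Cdh1, dim at 26.5 to 49.0, was higher in Colony under 2-fold, at 0.74 (SE 0.14). The other epithelial markers lay between -0.13 and 0.09. The 5 measured markers of endothelium were dim in both groups (164 to 177 and 189 to 227). Their part in the values below was not tested. In RNA from a whole culture, fewer cells of a type and less RNA per cell cannot be told apart.

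Of the 46 measured members, 11 were called different between Colony and A16 cells, 7 lower and 4 higher. To be called, a gene needed a fold change over 2 and an adjusted p under 0.05 in limma, with Benjamini-Hochberg adjustment over every probe set tested. The 11 were the ligands Tgfb2, Tgfb3 and Bmp7, the receptor Bmpr2, the modulators Fst and Fstl1, the inhibitory Smad7, and the target genes Tgfbi, Id1, Id2 and Id4. They made up 23.9% of the members, beside 9.12% of all genes called by the same rule. The members were chosen with earlier results of these data known, so these shares describe the list and test nothing. The members called lower were 15.2% beside 4.75% of all genes, and those called higher 8.7% beside 4.36%. A further 7 members (15.2%) had an adjusted p under 0.05 with a fold change under 2, much like the 14.6% of all genes. At any fold, 18 members (39.1%) had an adjusted p under 0.05, 7 higher and 11 lower, beside 23.7% of all genes. The median log2 fold change was -0.02 over the members and 0.05 over all genes, and the members ran from -2.98 to 3.53. For 27 members (58.7%) the 3 A16 and the 3 Colony intensities did not overlap, which held for 47.6% of all genes. In the PLIER summary of the same arrays 24 of the 27 did not overlap either, beside 5657 of the 6762 such genes among all genes.

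**Figure D1:**
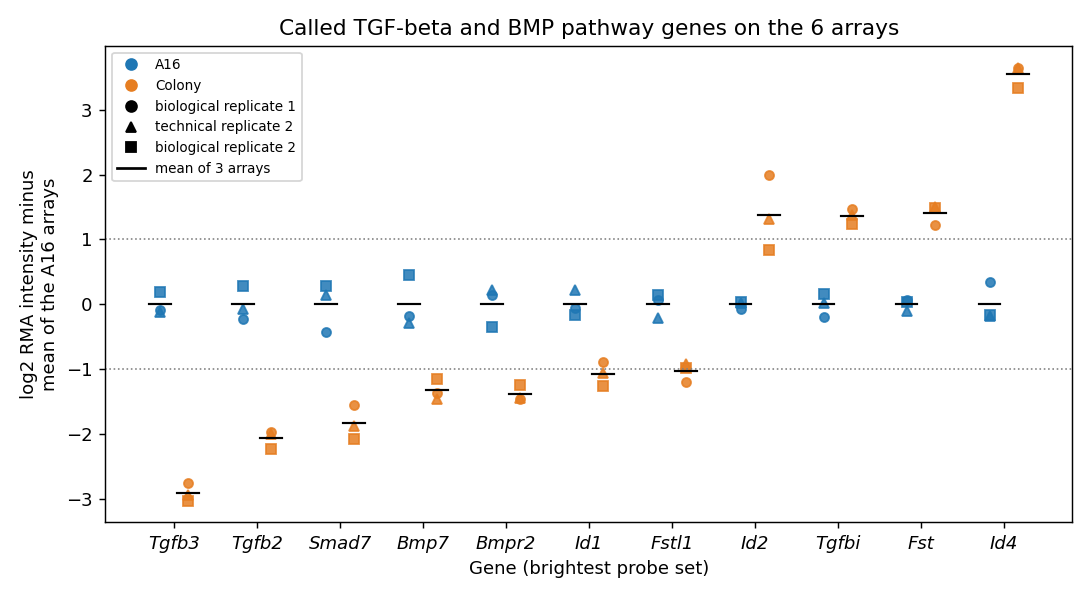
The 11 called members on each array. The vertical axis gives the log2 RMA intensity of the brightest probe set minus the mean of the 3 A16 arrays, blue marks are A16 and orange marks Colony arrays, the marker shape gives the replicate, short black lines are means of 3 arrays, and dotted lines mark a 2-fold difference. The groups do not overlap for any of the 11 genes, which were called from these same arrays, so this adds no support to the calls. The Colony arrays of Id2 and the A16 arrays of Bmp7 and Smad7 are among the more spread ones.

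The promoter sequences of Smad7 and Tgfbi are shown because these genes were called in opposite directions and both carry GGCGCC, a GC-rich motif bound by BMP-responsive Smads, shortly before their start. The stretches are from RefSeq (GRCr8), 5′ to 3′ on the strand of the gene, and end at the base before the start of the gene, with the motif in capitals. The Smad7 stretch is chr18:71263388-71263507 on the plus strand, with the motif beginning 96 and 36 bases before the start, and the Tgfbi stretch is chr17:7990114-7990233 on the minus strand, with the motif 112 bases before the start.
Smad7: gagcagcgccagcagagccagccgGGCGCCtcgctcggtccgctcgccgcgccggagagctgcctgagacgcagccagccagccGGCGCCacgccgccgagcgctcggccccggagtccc
Tgfbi: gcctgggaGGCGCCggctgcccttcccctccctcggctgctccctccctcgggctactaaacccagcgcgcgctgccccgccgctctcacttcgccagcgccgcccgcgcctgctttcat

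Windows of 300 bases, 250 before and 50 after the start, were searched on both strands for 37 members that the promoter table holds. GGCGCC, which reads the same on both strands, was in 16 of the 37 (43.2%), beside 19.6% of 11734 promoters of measured genes and 11% of all 33469 promoters in the table. Of the called members, 9 had a promoter and 4 of these held the motif, with Smad7 and Fstl1 lower and Tgfbi and Id4 higher. The Smad box CAGAC was in 12 of 37 (32.4%), beside 49.2% of measured genes, and among the called members in Id1. The palindrome GTCTAGAC, which contains neither CAGAC nor its reverse complement, was in 0 of 37, beside 0.179% of measured genes. A match describes these letters in this window and no binding.

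Among the ligands, 3 of 13 measured genes were called (23.1%, beside 9.12% of all genes), all of them lower in Colony cells. The median log2 fold change of the ligands was -0.07. The mRNAs of TGF-beta 2 and TGF-beta 3 fell the most of the 13, while that of TGF-beta 1 spread widely within each group.

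Tgfb3 encodes the isoform of TGF-beta best known from palate and wound repair. The A16 arrays read 3647, 3552 and 4422 in RMA intensity, and the Colony arrays 570.7, 503.8 and 475.3. All Colony arrays were far below all A16 arrays, with a log2 fold change of -2.98 (SE 0.16, n = 2 cultures per group, limma adjusted p = 5.9e-05) and an FC value of -7.9. Where Colony was lower, the FC value is A16 over Colony, written with a minus. Tgfb2, the isoform of TGF-beta known from heart and eye development, read 720.8, 803 and 1020 in A16 and 215.6, 210.6 and 178.8 in Colony. The groups were apart on every array, and the log2 fold change was -2.17 (SE 0.18, adjusted p = 0.000421, FC value -4.51). The dimmer Tgfb2 probe set was called as well, with -1.63 (SE 0.26, adjusted p = 0.00523).

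Bmp7, a ligand of the BMP branch known from kidney and bone, had 150.0, 139.4 and 231.9 in A16 and 65.9, 61.7 and 76.1 in Colony. A16 replicate 2 was the highest of the arrays, and the groups did not overlap. The log2 fold change was -1.39 (SE 0.23, adjusted p = 0.00663, FC value -2.63).

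The mRNA of TGF-beta 1, the most widely expressed isoform, did not pass the test. Tgfb1 read 358.4, 457.8 and 824.3 in A16 and 1354, 703.6 and 544.5 in Colony. Replicate 2 was highest in A16 and lowest in Colony, the groups overlapped, and the log2 fold change of 0.34 had a SE of 0.38 (adjusted p = 0.609). Its 95% interval, -0.57 to 1.24, includes a 2-fold difference.

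Inhba and Inhbb, which encode the beta subunits of activin A and activin B, had adjusted p-values under 0.05 with a fold change under 2. Inhba had 153.2, 168.1 and 121.6 in A16 and 69.5, 76.3 and 72.3 in Colony, with no overlap. Its log2 fold change was -0.95 (SE 0.17, adjusted p = 0.00783), which passed the fold threshold at -1.15 without A16 replicate 2 and was -0.75 without A16 replicate 1. The dimmer Inhba probe set stood at 0.03 (adjusted p = 0.911). Inhbb had 57.0, 73.6 and 60.7 in A16 and 45.6, 39.8 and 36.1 in Colony, a log2 fold change of -0.68 (SE 0.14, adjusted p = 0.016). Of the remaining 7 ligands, which were Bmp2, Bmp3, Bmp4, Bmp6, Gdf10, Gdf15 and the inhibin alpha subunit Inha, none passed an adjusted p of 0.05, with log2 fold changes between -0.25 and 0.38. Bmp2, Bmp3, Bmp4 and Gdf10 were dim on all arrays, at 46.0 or less by their brightest probe set, and a difference may not be detectable at that level.

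Among the 9 measured receptors, 1 was called (11.1%, beside 9.12% of all genes), and the median log2 fold change was 0.09. Bmpr2, the type II receptor for BMPs, was lower in Colony cells. Its brightest probe set read 485.1, 512.6 and 344.9 in A16 and 160.3, 162 and 186.8 in Colony. Replicate 2 was the lowest array of A16 and the highest of Colony, yet the groups were apart, with a log2 fold change of -1.26 (SE 0.20, adjusted p = 0.00538, FC value -2.39). The dimmer Bmpr2 probe set, between 31.4 and 46.4 on all arrays, stood at 0.35 (SE 0.14, adjusted p = 0.116). The call was lost at -0.99 without A16 replicate 1 and at -0.45 (adjusted p = 0.0572) when the probe sets of a gene were averaged.

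Tgfbr1, the type I receptor for TGF-beta, gave different answers from its probe sets. The brightest had 1060, 1216 and 913.5 in A16 and 1364, 1663 and 2201 in Colony, without overlap, and a log2 fold change of 0.84 (SE 0.21, adjusted p = 0.0311). It passed the fold threshold at 1.11 without Colony replicate 1 and was 0.56 (adjusted p = 0.115) without Colony replicate 2. The dimmer Tgfbr1 probe set was called in the other direction, with 86.6, 95.2 and 132 in A16 and 43.5, 53.1 and 41.5 in Colony (log2 fold change -1.29, SE 0.20, adjusted p = 0.00495). No direction is given for Tgfbr1 here.

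Betaglycan, the TGF-beta co-receptor encoded by Tgfbr3, had higher intensities on each Colony array. The brightest Tgfbr3 probe set read 143.6, 156 and 253.4 in A16 and 563.3, 331.5 and 297.1 in Colony. The log2 fold change of 0.88 (SE 0.28) had an adjusted p of 0.0695 and was not called. It was called at 1.36 (adjusted p = 0.0297) with PLIER and at 1.26 (adjusted p = 0.00617) without A16 replicate 2, but was 0.50 (adjusted p = 0.191) without A16 replicate 1 and 0.61 (adjusted p = 0.248) without Colony replicate 1. The other Tgfbr3 probe set stood at 0.83 (SE 0.35, adjusted p = 0.153).

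Bmpr1a, a type I receptor for BMPs, read 497.5, 515.5 and 454.4 in A16 and 684.6, 677.9 and 668.6 in Colony. The groups did not overlap and the log2 fold change was 0.49 (SE 0.13, adjusted p = 0.0385), under 2-fold. Acvr1, another type I receptor, stood at 0.14 (adjusted p = 0.512) by its brightest probe set and at -0.85 and -1.22 by the dimmer ones (adjusted p = 0.129 and 0.061). Type II activin receptors Acvr2a and Acvr2b, the co-receptor Eng and the endothelial type I receptor Acvrl1 had log2 fold changes between -0.17 and 0.09 and did not pass the test. Acvrl1 was dim, at 28.3 to 33.0, and a difference may not be detectable at that level.

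**Figure D2:**
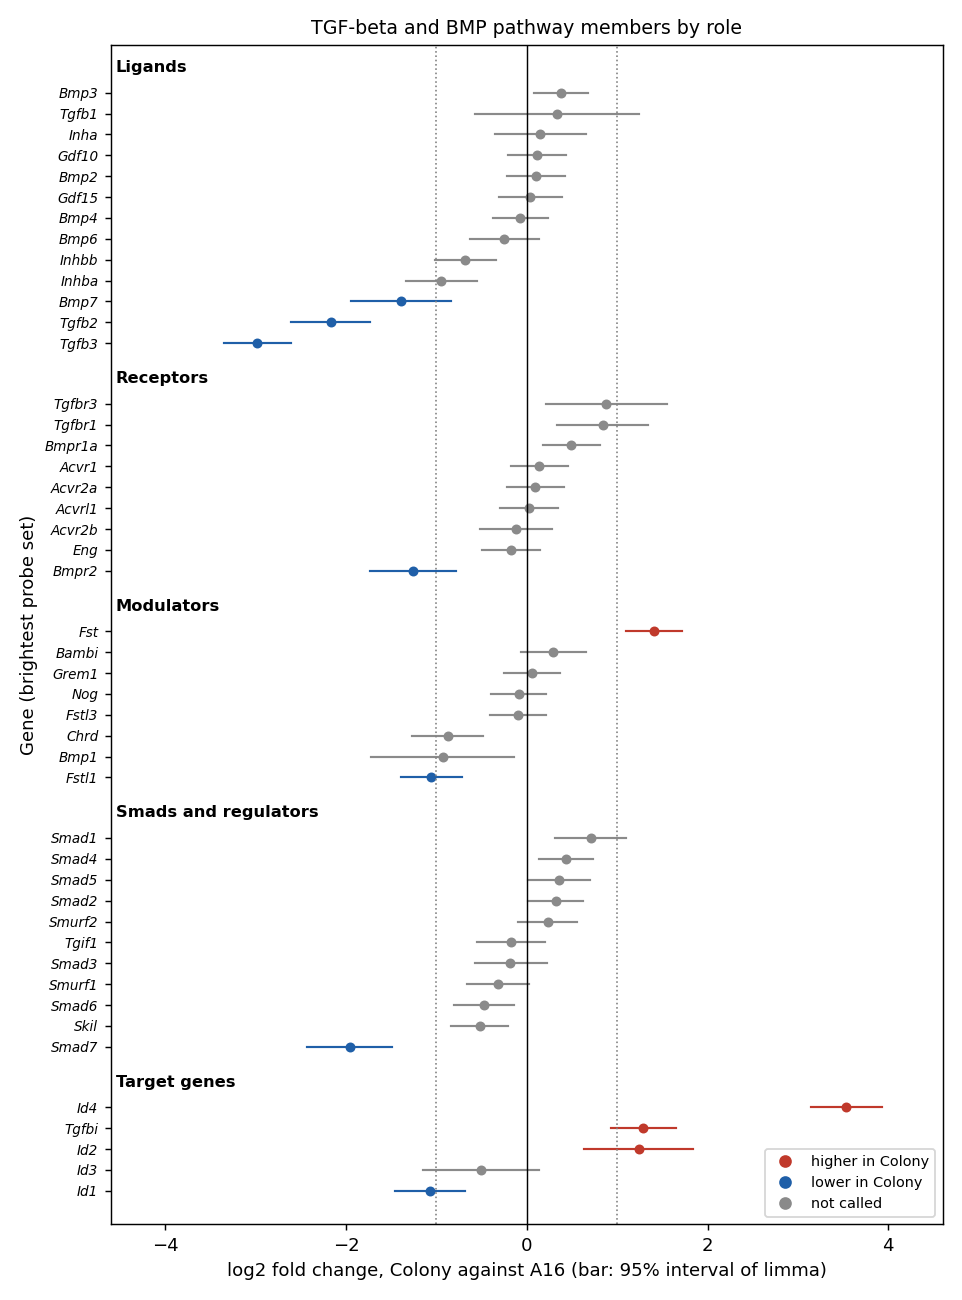
Log2 fold change of Colony against A16 cells for the 46 measured members, grouped by role and sorted within each group. Points are the brightest probe set, bars the 95% interval of limma, red and blue mark genes called higher and lower in Colony, and dotted lines a 2-fold difference. The called ligands, receptor and Smad lie to the left of -1, while the target genes hold the highest value (Id4, 3.53) and 1 called lower (Id1, -1.07).

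The 8 antagonists and other extracellular modulators held 1 gene called higher and 1 called lower (25% called, beside 9.12% of all genes). Fst, which encodes follistatin, the secreted protein that binds and neutralises activins, rose. It read 494.9, 436.3 and 481.4 in A16 and 1092, 1333 and 1315 in Colony, with little spread in either group. The log2 fold change was 1.41 (SE 0.13, adjusted p = 0.000596, FC value 2.66). The Fst probe set that was dimmer over all arrays had 600.2, 612.1 and 561.8 in A16 and 696.2, 644.3 and 700.5 in Colony. Its log2 fold change was 0.23 (SE 0.13, adjusted p = 0.273). In A16 alone it was the brighter one, so the choice of the called Fst probe set rested on the Colony arrays. The mean of the Fst probe sets, at 0.82, was under 2-fold.

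Fstl1, a secreted glycoprotein related to follistatin, fell by each of its 3 probe sets. The brightest read 4925, 4026 and 5148 in A16 and 2045, 2472 and 2361 in Colony, with a log2 fold change of -1.06 (SE 0.14, adjusted p = 0.00254, FC value -2.08). The other probe sets gave -1.76 (SE 0.17, adjusted p = 0.000646) and -2.44 (SE 0.30, adjusted p = 0.00199). None of the 3 overlapped between the groups. Without A16 replicate 2 the brightest stood at -0.95, under the fold threshold.

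Chordin, the secreted BMP antagonist encoded by Chrd, had lower intensities in Colony cells. Chrd read 86, 93 and 89 in A16 and 40, 45.1 and 56 in Colony. Its log2 fold change of -0.87 (SE 0.17, adjusted p = 0.0106) was under 2-fold, and it was called at -1.3 with PLIER and at -1.07 without Colony replicate 2, but was -0.67 without Colony replicate 1. Bmp1, the protease that cleaves chordin and procollagens, read 444.8, 476.1 and 959.5 in A16 and 451.1, 352.3 and 305.7 in Colony. A16 replicate 2 was about 2-fold above the other A16 arrays, the groups overlapped, and the log2 fold change of -0.93 (SE 0.33) had an adjusted p of 0.0953. It was called at -1.46 without A16 replicate 1, which leaves the high array as the only A16 culture, and was -0.40 (adjusted p = 0.297) without A16 replicate 2. Bambi, a decoy receptor that lacks the kinase, stood at 0.29 (SE 0.15, adjusted p = 0.23). The activin-binding Fstl3 and the BMP antagonists Nog and Grem1 had log2 fold changes of -0.10 to 0.06, and Nog and Grem1 were dim on all arrays, at 19.7 to 23.3.

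Of the 11 Smads and regulators, 1 was called (9.09%, much like the 9.12% of all genes). Smad7, the inhibitory Smad that is itself induced by TGF-beta and blocks the type I receptor, fell. It read 563.4, 839.4 and 921.2 in A16 and 259.7, 208.2 and 179.5 in Colony, with the groups apart. The log2 fold change was -1.96 (SE 0.20, adjusted p = 0.00087, FC value -3.9). A dimmer Smad7 probe set was called too, at -2.73 (SE 0.64, adjusted p = 0.0239), with A16 replicate 2 at 693.7 against 178.6 and 124.3 on the other A16 arrays. The dimmest Smad7 probe set had the same direction at -0.57 (SE 0.16, adjusted p = 0.0406). Smad6, the inhibitory Smad of the BMP branch, was not called by its brightest probe set (333.8, 302.1 and 289.9 in A16 and 189, 220.5 and 233.7 in Colony, log2 fold change -0.47, SE 0.14, adjusted p = 0.0537). The probe set next in brightness was called lower, at -1.08 (SE 0.13, adjusted p = 0.00196), and the dimmest Smad6 probe sets stood at 0.05 and -0.10.

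Smad1, which transmits BMP signals, had higher intensities in Colony cells by its brightest probe set. It read 568.5, 592.7 and 733 in A16 and 1103, 1191 and 991.2 in Colony, a log2 fold change of 0.71 (SE 0.17, adjusted p = 0.023) that was under 2-fold. The dimmer Smad1 probe set stood at -0.59 (adjusted p = 0.156). Smad5, of the same branch, had a log2 fold change of 0.36 (SE 0.15, adjusted p = 0.138) by its brightest probe set. Another Smad5 probe set, with 555.5, 571.1 and 589.5 in A16 and 1479, 1513 and 1432 in Colony, was called higher at 1.34 (SE 0.13, adjusted p = 0.000673), and the dimmest stood at -0.64 (adjusted p = 0.0325).

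Smad2 and Smad3, which transmit TGF-beta and activin signals, did not pass the test by their brightest probe sets. Smad2 stood at 0.32 (SE 0.13, adjusted p = 0.136) and Smad3 at -0.18 (SE 0.17, adjusted p = 0.526). A dimmer Smad3 probe set, with 80.9, 78.6 and 138.3 in A16 and 43.4, 39.5 and 38.3 in Colony, was called lower at -1.40 (SE 0.25, adjusted p = 0.0086). Smad4, the partner shared by both branches, had 1240, 1273 and 1287 in A16 and 1613, 1754 and 1739 in Colony, a small and tight difference of 0.43 on the log2 scale (SE 0.13, adjusted p = 0.0531). The dimmer Smad4 probe set gave -0.74 (SE 0.18, adjusted p = 0.0247).

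The nuclear corepressor Skil (SnoN), which restrains Smad2 and Smad3 and is a TGF-beta target, read 1873, 2138 and 1872 in A16 and 1183, 1409 and 1404 in Colony. The groups were apart, with a log2 fold change of -0.52 (SE 0.13, adjusted p = 0.0306) under 2-fold. The corepressor Tgif1 stood at -0.17 (adjusted p = 0.505) and the ubiquitin ligase Smurf1 at -0.32 (adjusted p = 0.166). Smurf2, a ubiquitin ligase that works with Smad7, stood at 0.23 (SE 0.14, adjusted p = 0.307) by its brightest probe set. A dimmer Smurf2 probe set had 1609, 1133 and 1162 in A16 and 222.8, 383.2 and 524.2 in Colony and was called lower, at -1.68 (SE 0.27, adjusted p = 0.00546).

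Of the 79 probe sets, 22 (27.8%) were called, 7 higher and 15 lower in Colony cells, beside 9.81% of all 31042 probe sets tested, and probe sets of a gene are not independent of each other. No member had 1 probe set called higher and another called lower, but in 5 members, which were Tgfbr1, Smad3, Smad5, Smad6 and Smurf2, a dimmer probe set was called while the brightest was not. In 4 of these the dimmer called probe set was lower in Colony cells and in Smad5 it was higher. The share of such genes over all genes is not given here, so this count describes these members only.

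**Figure D3:**
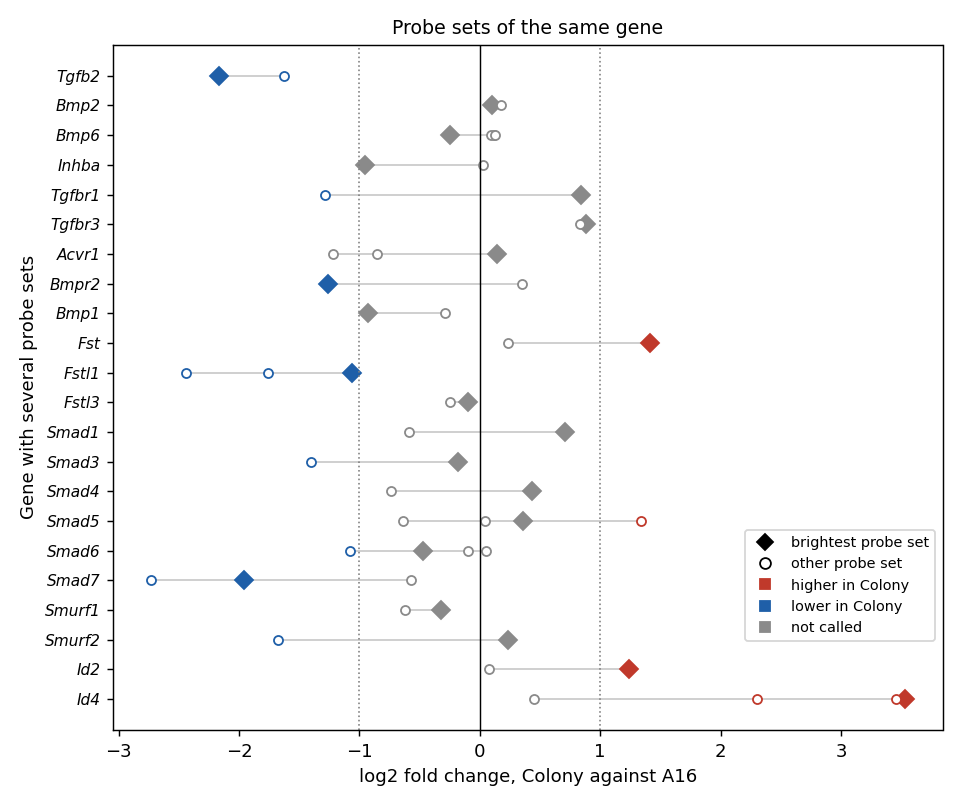
Log2 fold change of Colony against A16 cells for every probe set of the 22 members with several. Filled diamonds are the brightest probe set of a gene and open circles the others, grey lines join probe sets of a gene, red and blue mark probe sets called higher and lower in Colony, and dotted lines a 2-fold difference. The probe sets of Fstl1 and Tgfb2 lie on the same side of 0, while those of Tgfbr1, Bmpr2 and Smad5 lie on both sides.

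Among the 5 target genes, 3 were called higher and 1 lower (80% called, beside 9.12% of all genes). Their median log2 fold change was 1.24. The Id proteins are helix-loop-helix factors without a DNA-binding region that block basic helix-loop-helix factors, and they are well-known targets of the BMP branch. The 4 Id genes did not move as a block. Id4 and Id2 rose, Id1 fell and Id3 overlapped between the groups.

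Id4 had the largest change among the members. It read 57, 39.7 and 39.9 in A16 and 558.2, 561.7 and 453.9 in Colony, with a log2 fold change of 3.53 (SE 0.16, adjusted p = 3.97e-05) and an FC value of 11.6. In A16 cells its intensity lay at percentile 29.7 of all probe sets, a dim level against which the fold was taken. Of its other 3 probe sets, 2 were called higher as well, at 3.46 (SE 0.17, adjusted p = 4.5e-05) and 2.30 (SE 0.19, adjusted p = 0.000358), and the last stood at 0.45 (SE 0.17, adjusted p = 0.103).

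Id2 read 1632, 1735 and 1756 in A16 and 6821, 4228 and 3050 in Colony. The Colony arrays differed from each other by more than 2-fold, yet all lay above the A16 arrays. The log2 fold change was 1.24 (SE 0.26, adjusted p = 0.0147, FC value 2.35), and without Colony replicate 1 it was 0.83. The dimmer Id2 probe set was not called (627.2, 562 and 874.1 in A16 and 902.8, 742.3 and 711 in Colony, log2 fold change 0.08, SE 0.20, adjusted p = 0.831), and the mean of the Id2 probe sets, at 0.66, was not called.

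Id1 read 4029, 4868 and 3715 in A16 and 2249, 2016 and 1754 in Colony. The groups were apart, and the log2 fold change of -1.07 (SE 0.16, adjusted p = 0.00441, FC value -2.1) lay just past the fold threshold. It fell short at -0.96 with the technical arrays left out, at -0.94 without A16 replicate 1 and at -0.93 (adjusted p = 0.0203) without Colony replicate 2. Id3 read 6961, 8302 and 7179 in A16 and 3054, 4824 and 7059 in Colony. Colony replicate 2 lay among the A16 arrays and Colony replicate 1 far below them, and the log2 fold change of -0.51 (SE 0.27) had an adjusted p of 0.25.

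Tgfbi, which encodes a secreted matrix protein named for its induction by TGF-beta, rose. It read 1603, 1858 and 2039 in A16 and 5056, 4734 and 4284 in Colony, with no overlap. The log2 fold change was 1.29 (SE 0.15, adjusted p = 0.00158, FC value 2.44). The ligand mRNAs Tgfb2 and Tgfb3, described above, lay on the other side of 0.

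The wider pathway was described with a list of 61 further genes, of which 49 were measured. Of these, 4 were called higher and 10 lower in Colony cells, 28.6% called beside the 9.12% of all genes. Their median log2 fold change was -0.02. This list too was chosen with earlier results of these data known, so its shares describe it and test nothing. Of the 13 measured targets in this list, 6 were lower and 1 was higher (53.8% called), with a median of -0.95. Over the other roles, 4 were lower and 3 higher. By role, 42.9% of the 7 antagonists and 25% of the 4 receptors were called, beside 9.12% of all genes. Ligands, Smads with regulators, and genes of latency and activation had 11.1% to 12.5% called.

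Tagln, a contractile protein of smooth muscle and myofibroblasts, read 4131, 4550 and 4179 in A16 and 54, 47.5 and 43 in Colony. Its log2 fold change was -6.51 (SE 0.14, adjusted p = 6.61e-06). The Colony arrays were close to the lowest PLIER intensity of 16.0, at 17.8, 18.3 and 17.9, so the size of the fold is uncertain, while the A16 arrays read 2846, 3206 and 3307 in PLIER. Ccn2, the connective tissue growth factor induced by TGF-beta, stood at -4.91 (SE 0.17, adjusted p = 1.39e-05), with 10647, 11038 and 10780 in A16 and 407.3, 422.1 and 313.9 in Colony. Pmepa1, a TGF-beta target that dampens Smad2 and Smad3, read 2397, 2378 and 3654 in A16 and 164.2, 193.4 and 157.2 in Colony, a log2 fold change of -4.14 (SE 0.21, adjusted p = 5.71e-05). Acta2, smooth muscle actin, stood at -2.68 (SE 0.36, adjusted p = 0.00279), with 932.3, 728.6 and 1919 in A16 and 190.5, 171.4 and 213.7 in Colony. The A16 arrays of Acta2 were widely spread, and its log2 fold change was smaller with PLIER as log2(value + 16), at -1.79. None of these genes overlapped between the groups. Tagln, Ccn2 and Acta2 are also known targets of serum response factor or YAP.

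Higher in Colony cells were Bmper, Hey1, Ltbp2 and Bmp5. Bmper, a secreted BMP-binding protein, read 18.6, 21.2 and 18.6 in A16 and 72, 90.9 and 142.1 in Colony, a log2 fold change of 2.48 (SE 0.26, adjusted p = 0.000949). In A16 cells Bmper lay at percentile 3.9 of all probe sets and at 17.2 to 18.8 in PLIER, near the lowest PLIER value, so the size of its fold is uncertain (1.72 with PLIER as log2(value + 16)). Hey1, a target of both BMP and Notch signals, stood at 2.13 (SE 0.22, adjusted p = 0.00105), with 71, 65.3 and 55 in A16 and 331.8, 328.6 and 216.2 in Colony. Ltbp2, a matrix protein of the latent TGF-beta binding protein family that does not itself bind latent TGF-beta, stood at 1.49 (SE 0.17, adjusted p = 0.0015). The ligand Bmp5 stood at 1.14 (SE 0.14, adjusted p = 0.00217) at dim intensities of 21.1 to 56.2, and its other probe set stood at -0.01. In A16 that other probe set was the brighter one, at 31.8 to 33.5, so the choice rested on the Colony arrays. The Bmp5 call was lost at 0.88 with PLIER as log2(value + 16) and at 0.57 with the mean of its probe sets.

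**Figure D4:**
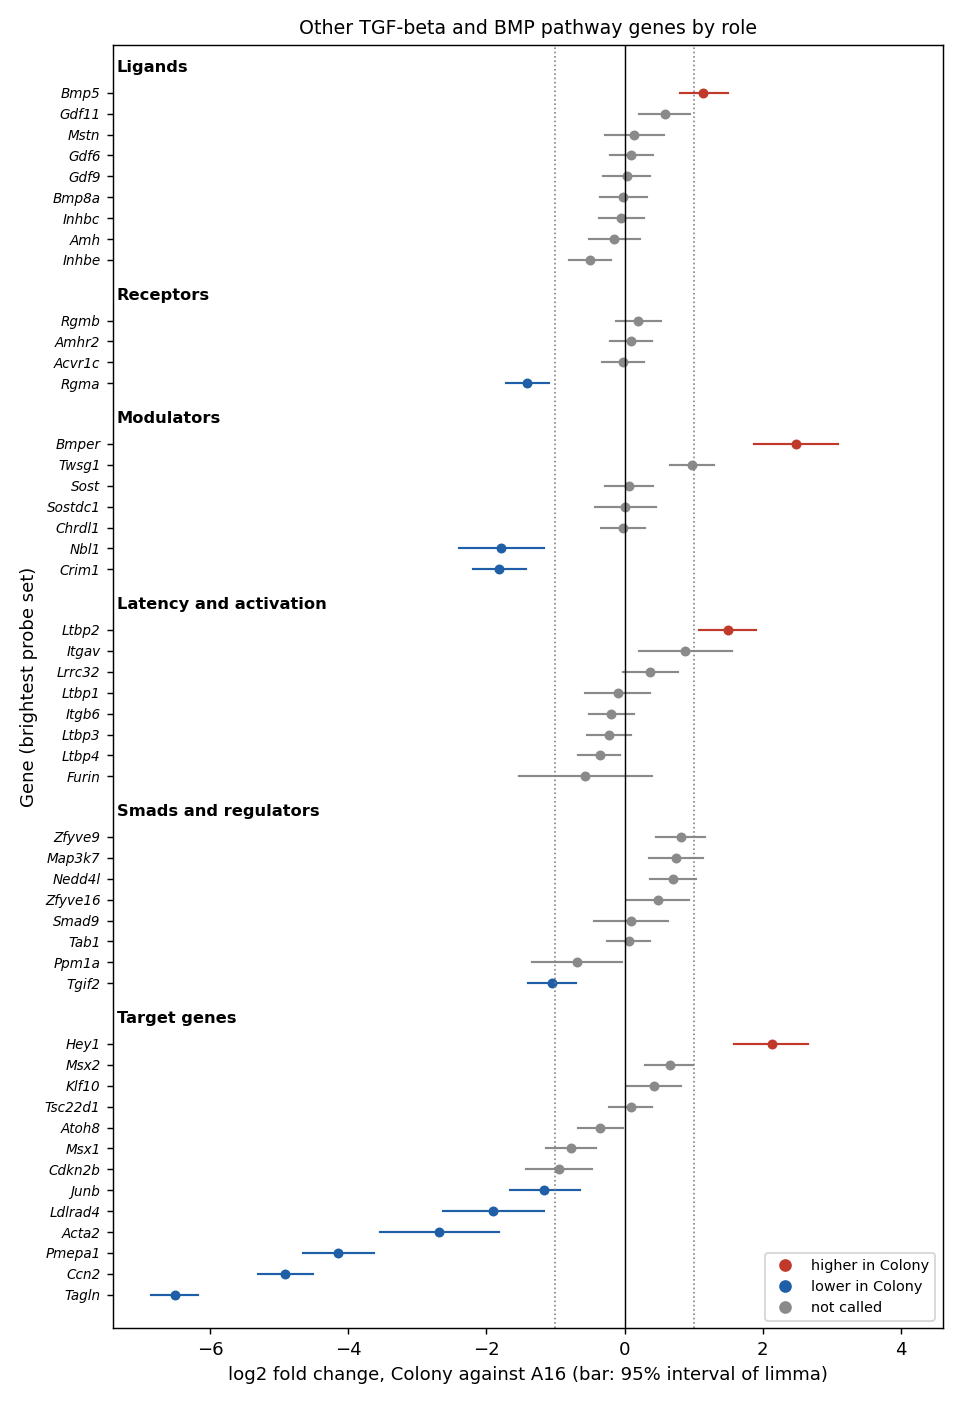
Log2 fold change of Colony against A16 cells for the 49 measured genes of the wider pathway list, grouped by role. Points are the brightest probe set, bars the 95% interval of limma, red and blue mark genes called higher and lower in Colony, and dotted lines a 2-fold difference. The targets reach from Tagln at -6.51 to Hey1 at 2.13, and the genes of latency and activation stay between -0.57 and 1.49.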

How the data were processed

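The authors hybridised RNA of A16 and Colony F111 cells to 6 Affymetrix rat arrays and deposited, for each probe set, an RMA and a PLIER intensity from Avadis on a linear scale. Versions of these summaries were not found in the labels or methods. The analysis was planned for log2 values. Since the deposited RMA intensity was linear, its log2 was taken with nothing added.

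The 31099 probe sets included 57 controls. The other 31042 entered 1 fit (limma 3.58.1, R 4.3.3, functions lmFit and eBayes), with Benjamini-Hochberg adjustment over all of them and no filter on dim probe sets. The prior that draws the spread of a probe set towards that of all probe sets had 4.76 degrees of freedom. No detection calls were used. Of the tested probe sets, 20826 had 1 gene symbol, 436 several and 9780 none; symbols were updated through the RefSeq gene table (GRCr8). Groups came from the labels, and batches of scanning or hybridisation were not tested, since no label names one. The technical arrays carry no biological number.

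The members and lists were chosen with earlier results of these data known. Every member was accounted for by role, called members were named with each array's value, others where the adjusted p was under 0.05, probe sets disagreed or the gene stands for a step of the pathway, and other pathway genes were named where called, up to 4 in each direction by size. The fit was tested on simulated data, and figures were drawn with matplotlib 3.10.9 in Python 3.11.15. Alternatives were PLIER, other uses of the technical arrays, a replicate block, leaving out each culture, a filter, another centring, the mean of probe sets, the methods' t-test and no fold threshold.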

Additional observations from a re-analysis of the deposited data

How the results depend on the processing

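No member and no other pathway gene that was called changed direction under any alternative. Tgfb2, Tgfb3, Bmp7, Smad7, Tgfbi and Id4 stayed called in all 15 alternatives that kept limma and the fold threshold. The mean of all probe sets of a gene left 2 members called higher. Leaving out the lower 40 percent of probe sets kept 10343 genes and left 2 other pathway genes called higher. That filter took out Bmper and Bmp5 themselves, so their calls were not tested in it. The methods' t-test on 2 cultures per group gave 3 members higher and 6 lower unadjusted (other pathway genes 4 and 7) and 0 in either direction after Benjamini-Hochberg, for members and other pathway genes alike. Without the fold threshold, 7 members were higher and 11 lower, and 10 other pathway genes were higher and 13 lower, beside 23.7% of all genes in either direction. Leaving out a culture gave 4 to 5 members higher and 6 to 7 lower, and 4 to 5 other pathway genes higher and 9 to 11 lower (5 and 9 without Colony replicate 2), and then 1 group has 1 culture, assumed to vary like the other. The replicate number as a block gave 4 members higher and 7 lower (other pathway genes 4 and 10) and changed none of these counts. Cultures with the same number deviated with a correlation of -0.148 over 31042 probe sets, so the crossed pairing, chosen after seeing the data, was tried, and it gave 4 and 7 as well. No alternative scaling moved the median log2 fold change of all genes by as much as 0.1. The RMA values were already normalised between arrays, so the other centring could move little. Dim probe sets limit what can be seen for Bmp2, Bmp3, Bmp4, Gdf10, Acvrl1, Grem1 and Nog.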
